A study of Mus musculus with 13 samples.

Results

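The respiratory chain genes described here are the nuclear genes for subunits of the 5 complexes of oxidative phosphorylation, taken by name from a mouse whole-genome expression array: all genes named Nduf followed by a, b, c, s or v, the 4 Sdh genes, the Uqcr genes, Cyc1, the Cox genes numbered 4 to 8 and the Atp5 genes. The array carried 91 such genes, and 89 of them passed the filter that a probe be well above background on 2 or more arrays, out of 25413 genes that passed it in all. Cox7b2 and Cox8c, isoforms known from testis, were well above background on 0 of 13 arrays and have no value. The name rule also took in 7 genes that do not encode a subunit (the assembly factors Ndufaf1, Ndufaf2, Ndufaf3 and Ndufaf4, and Cox4nb, Atp5s and Atp5sl), which leaves 82 subunit genes.

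All 13 samples were colorectal tissue of CPC-Apc mice, which carry the genotype CDX2P-NLS Cre;Apc+/loxP: 1 Apc allele is floxed, and Cre is driven by a CDX2 promoter, so the deletion is limited to cells in which that promoter has been active. The groups were normal tissue (2 arrays) and tumors (2 arrays) of mice injected with microRNAs, and normal tissue (2 arrays) and tumors (7 arrays) of control mice. The injected microRNAs were miR-200c, miR-302 (a, b, c and d) and miR-369 (3p and 5p), 25 µg of each, given by tail vein in super carbonate apatite in 24 injections, 3 a week from 8 weeks of age. The protocol gives a negative control microRNA as the alternative, while the titles of the control arrays name only the mouse line. Neither the animal behind each sample nor any pooling is stated, so p-values measure only the spread between these samples.

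The respiratory chain lies in the inner mitochondrial membrane. Complexes I and II take electrons from NADH and succinate, complexes III and IV pass them on to oxygen, and complex V (ATP synthase) makes ATP from the proton gradient that complexes I, III and IV build up. Most subunits are encoded in the nucleus and some of the catalytic ones in mitochondrial DNA, and the mature colonocyte is known to draw much of its energy from the oxidation of butyrate in mitochondria.

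Array brightness went with tissue: the 75th percentile of the signal ranged from 213 to 319 over the 4 arrays of normal tissue and from 412 to 736 over the 9 tumors. Levels are therefore log2 signal minus the log2 75th percentile of the same array, and every difference is relative to the other transcripts on that array. Mature colonocyte markers (14 of 14 measured) were above background on every array. Slide 2 held microRNA normal 1, microRNA tumor 1, both control normals and control tumor 3, and slide 1 held the other arrays.

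Relative to other transcripts, those of the respiratory chain were lower in the tumors. Without scaling between arrays the member median itself turned to 0.13, beside 0.89 for all genes. Over both groups of mice, 71 of the 89 genes fell, 1 rose and 17 did not pass the test (limma, additive model of tissue and treatment, Benjamini-Hochberg adjustment over all 25413 genes, threshold 0.05), while 19.6% of all genes fell and 11.7% rose. The median log2 difference was -0.86 over the 89 genes and -0.11 over all genes, and 86 of the 89 differences were below 0. All 9 tumors lay below all 4 normal arrays for 48 of the 89 genes, as for 10.5% of all genes. In bulk tissue, fewer cells of a type that is rich in these transcripts and less of them per cell cannot be told apart.

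The size of the difference depended on how the arrays were made comparable. Scaling each array to its median, which moved the median of all genes up by 0.11, left 41 of 89 genes that fell and 1 that rose (12.4% and 13% of all genes), with a member median of -0.75 and 15 genes without overlap (5.64% of all genes). Quantile normalization gave 30 that fell and 1 that rose (14.9% and 15.8% of all genes) and a member median of -0.45. Without any scaling 2 genes fell and 10 rose (2.73% and 57.3% of all genes). The member median lay 0.76 below the all-gene median under 75th percentile scaling and without scaling, since that scaling shifts all genes of an array alike. It lay 0.47 below the all-gene median after quantile normalization and 0.53 below it without the filter on dim probes. With normexp background correction, where 37.9% of all genes fell, it lay 0.44 below. Which scale fits these tissues was not tested. Below, the overlap of single genes is described under 75th percentile scaling unless another scale is named.

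Most of these genes gave bright signals, and bright probes as a class were lower in tumors. The brightest 10% of all genes by mean level held 69 of the 89 genes, of which 63 fell, with a median of -0.91. The other 2473 of these bright genes had a median of -0.34, and 27.6% of them fell while 3.52% rose. After quantile normalization the brightest 10% gave -0.47 for its 69 respiratory chain genes, of which 26 fell, and 0.11 for the other genes, of which 7.93% fell. The part of signal brightness in the fall was not tested.

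**Figure D1:**
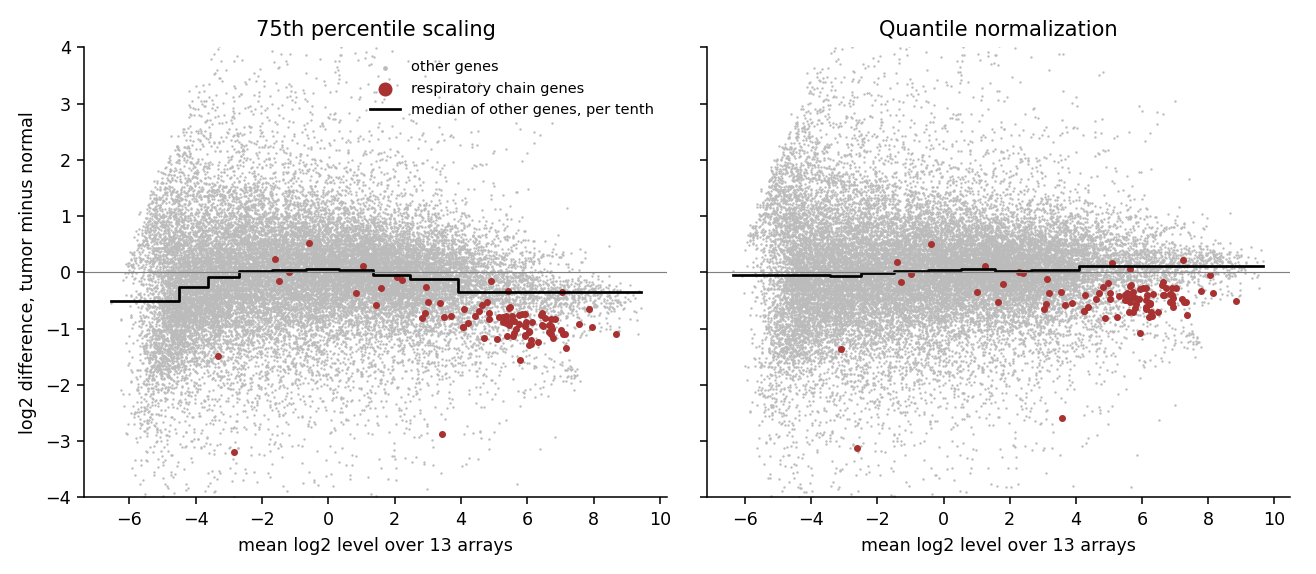
Log2 difference between tumor and normal tissue (vertical axis) against mean log2 level over 13 arrays (horizontal axis) under 75th percentile scaling (left) and quantile normalization (right); red points are the 89 respiratory chain genes, grey points other genes, and the black line is the median of the other genes in each of 10 bins by level. Genes beyond 4 in size (171 left, 157 right) are not drawn; in the brightest bin the red points have a median of -0.91 on the left and -0.47 on the right, with other genes at -0.34 and 0.11, and without scaling the median of the red points turned to 0.13.

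Printed below is 1 promoter per complex, from the single-start subunit with the smallest p that held an NRF1 or ETS family motif. The promoter of Cox7a1, the restricted isoform with the smallest p, is added. NRF1 and the ETS family factor GABP are known regulators of nuclear respiratory genes. Each is the 250 bases before the RefSeq start on GRCm38.p6, written 5′ to 3′ on the strand of the gene, with matches to the NRF1 motif (GCGCA, any base, then GCGC) or to CCGGAAG (ETS family), on either strand, in capitals. The windows are Ndufs3 at chr2:90904722-90904971 (minus strand), Sdha at chr13:74350241-74350490 (minus strand), Uqcrh at chr4:116075071-116075320 (minus strand), Cox6a1 at chr5:115348959-115349208 (minus strand), Atp5k at chr5:108434400-108434649 (minus strand) and Cox7a1 at chr7:30183921-30184170 (plus strand).
Ndufs3: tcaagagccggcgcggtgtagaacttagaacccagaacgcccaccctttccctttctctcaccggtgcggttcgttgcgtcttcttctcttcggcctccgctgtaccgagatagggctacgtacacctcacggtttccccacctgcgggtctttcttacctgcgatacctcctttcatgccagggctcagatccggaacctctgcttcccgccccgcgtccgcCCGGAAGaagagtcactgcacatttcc
Sdha: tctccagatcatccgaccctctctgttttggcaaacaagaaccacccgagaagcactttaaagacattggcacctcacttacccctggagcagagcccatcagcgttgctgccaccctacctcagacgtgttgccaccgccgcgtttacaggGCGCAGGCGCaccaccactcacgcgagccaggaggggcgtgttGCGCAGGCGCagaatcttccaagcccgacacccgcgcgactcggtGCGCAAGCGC
Uqcrh: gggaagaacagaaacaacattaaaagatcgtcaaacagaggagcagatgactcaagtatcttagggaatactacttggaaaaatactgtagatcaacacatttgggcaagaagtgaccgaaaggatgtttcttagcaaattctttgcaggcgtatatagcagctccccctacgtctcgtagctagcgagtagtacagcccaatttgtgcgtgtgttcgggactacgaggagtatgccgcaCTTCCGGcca
Cox6a1: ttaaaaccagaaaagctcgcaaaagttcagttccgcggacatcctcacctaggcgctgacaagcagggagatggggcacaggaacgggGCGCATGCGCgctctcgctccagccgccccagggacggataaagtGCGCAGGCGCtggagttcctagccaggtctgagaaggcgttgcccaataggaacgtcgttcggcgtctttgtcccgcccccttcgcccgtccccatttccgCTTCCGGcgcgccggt
Atp5k: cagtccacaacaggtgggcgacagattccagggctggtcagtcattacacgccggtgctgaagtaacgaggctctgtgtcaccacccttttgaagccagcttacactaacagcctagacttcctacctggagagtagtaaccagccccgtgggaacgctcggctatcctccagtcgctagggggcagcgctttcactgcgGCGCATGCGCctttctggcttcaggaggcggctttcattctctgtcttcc
Cox7a1: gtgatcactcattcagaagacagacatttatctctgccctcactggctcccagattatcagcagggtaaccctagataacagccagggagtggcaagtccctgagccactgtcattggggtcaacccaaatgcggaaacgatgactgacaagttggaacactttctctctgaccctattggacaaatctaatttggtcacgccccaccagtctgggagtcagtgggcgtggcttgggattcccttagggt
Of the 73 members with a promoter entry, 14 (19.2%) held the NRF1 motif and 13 (17.8%) the ETS motif, against 4.23% and 7.83% of the 27025 genes with an entry. The motif of the estrogen-related receptors, AAGGTCA, was in 5 (6.85%, against 4.70% of all genes) and CCAAT in 33 (45.2%, against 37.5%), again on either strand, and no motif contains another. At least 1 NRF1 or ETS match was in 21 of the 59 members that fell and in 3 of the 14 that did not. The Cox7a1 window held neither. A match describes letters only, and binding was not measured. The comparison with all genes was not matched for base composition, and any part of these motifs in the fall was not tested.

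Complex I, which takes electrons from NADH, fell in 31 of its 36 genes, with a median of -0.81 and a range of -1.55 to -0.26. Without control normal 2 the count was 12, without microRNA tumor 2 it was 18, and without any other single array 22 to 33. The other complexes also had their lowest counts without control normal 2: 2 of 4 genes in complex II, 5 of 9 in complex III, 5 of 12 common genes in complex IV and 7 of 15 in complex V. Of 7 nuclear genes for its catalytic core 5 fell. Ndufb10, an accessory subunit of the membrane arm (probe at chr17:24859019-24859078 on mm9, the build of all probe positions here), was at 6.94 and 6.88 in the microRNA normals, 6.63 and 7.09 in the control normals and 5.54 and 5.37 in the microRNA tumors, and ran from 4.70 over a median of 5.31 to 5.75 in the control tumors. Every tumor lay below every normal array. The gene fell by 1.55 ± 0.21 (adjusted p = 0.000672), or 2.93-fold.

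Ndufs7, which carries the last iron-sulfur cluster before ubiquinone, was at 6.31 and 6.22 in the microRNA normals, 5.89 and 6.33 in the control normals and 5.02 and 4.98 in the microRNA tumors, and ran from 4.44 over a median of 5.10 to 5.56 in the control tumors. Its groups did not overlap, and it fell by 1.13 ± 0.20 (adjusted p = 0.00259). Ndufb9, another membrane-arm subunit, fell by 1.20 ± 0.23 (adjusted p = 0.00341), also without overlap. Ndufv1, which binds NADH and the flavin, fell by 0.86 ± 0.21 (adjusted p = 0.0101). Its mean level was 6.23 ± 0.36 (SD, n = 4) over the normal arrays and 5.33 ± 0.29 (SD, n = 9) over the tumors. Its highest tumor, control tumor 1 at 5.83, was above control normal 1 at 5.75.

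Ndufs1, the largest subunit of the peripheral arm, fell by 0.58 ± 0.17 (adjusted p = 0.0221) and lost the call under median scaling (adjusted p = 0.139). Genes of complex I that did not pass included the accessory subunits Ndufb2 (-0.77), Ndufs4 (-0.68) and Ndufc2 (-0.34) and the iron-sulfur subunit Ndufs8 (-0.26). Median scaling left 13 of the 36 genes that fell, and quantile normalization 14.

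Complex II, the only complex that also belongs to the citrate cycle, fell in 4 of 4 genes with a median of -0.92. Sdhb, its iron-sulfur subunit (chr4:140535052-140535108), was at 7.26 and 7.08 in the microRNA normals, 6.55 and 7.20 in the control normals and 6.01 and 5.48 in the microRNA tumors, and ran from 5.08 over a median of 5.67 to 6.38 in the control tumors. The highest tumor, control tumor 1, stayed below the lowest normal array, control normal 1. Under median scaling control tumor 1 (10.01) lay above control normal 1 (9.96). Sdhb fell by 1.28 ± 0.26 (adjusted p = 0.00507). Sdhc, a membrane anchor, fell by 0.97 ± 0.20 (adjusted p = 0.00518), also without overlap under 75th percentile scaling.

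Sdha, which binds succinate and the flavin, fell by 0.83 ± 0.20 (adjusted p = 0.00988), and Sdhd, the other anchor, fell by 0.86 ± 0.26 (adjusted p = 0.0245). Both overlapped: control tumor 1 reached 5.23 for Sdha, above control normal 1 at 5.11, and control tumor 5 reached 5.87 for Sdhd, above microRNA normal 2 at 5.73. Under median scaling Sdha, Sdhb and Sdhc passed and Sdhd did not (adjusted p = 0.0802). Under quantile normalization Sdhb and Sdhc passed.

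Complex III, which passes electrons from ubiquinol to cytochrome c, fell in 9 of 9 genes with a median of -0.97 and a range of -1.23 to -0.86. Uqcrfs1, the Rieske iron-sulfur protein (chr13:30632363-30632422), was at 5.99 and 5.85 in the microRNA normals, 5.46 and 6.26 in the control normals and 4.95 and 4.47 in the microRNA tumors, and ran from 4.20 over a median of 4.69 to 5.49 in the control tumors. Control tumor 1 was just above the lowest normal array, control normal 1, and the other tumors were below all 4. The gene fell by 1.18 ± 0.25 (adjusted p = 0.00591).

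Cyc1, the cytochrome c1 that hands electrons to cytochrome c, fell by 0.88 ± 0.22 (adjusted p = 0.012), and Uqcrc1, a core subunit, fell by 0.97 ± 0.27 (adjusted p = 0.0172). For both, the highest tumor overlapped the lowest normal array. The smallest p-values of complex III belonged to the small subunits Uqcrh (-1.10 ± 0.23, adjusted p = 0.0048), Uqcr11 (-1.23 ± 0.26, adjusted p = 0.00509) and Uqcrq (-1.17 ± 0.25, adjusted p = 0.00568), whose groups did not overlap. Median scaling left 8 of the 9 genes that fell, and quantile normalization 4.

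Complex IV, cytochrome c oxidase, reduces oxygen. Among its 12 widely expressed subunits 11 fell, with a median of -0.96. Cox4i1, which contacts the mitochondrially encoded core (chr8:123197924-123197983), was at 8.47 and 7.57 in the microRNA normals, 7.99 and 8.31 in the control normals and 7.11 and 6.51 in the microRNA tumors, and ran from 5.99 over a median of 6.73 to 7.29 in the control tumors. The groups did not overlap, and Cox4i1 fell by 1.34 ± 0.27 (adjusted p = 0.0044), or 2.54-fold.

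Cox5a and Cox5b, which lie on the matrix side, fell by 0.91 ± 0.19 (adjusted p = 0.00592) and 1.14 ± 0.24 (adjusted p = 0.00583), both without overlap. Cox6a1, Cox8a and Cox7a2, the widely expressed partners of muscle-type forms, fell by 1.09 ± 0.22 (adjusted p = 0.00471), 0.97 ± 0.21 (adjusted p = 0.00618) and 1.14 ± 0.30 (adjusted p = 0.0155), likewise without overlap. Cox6b1, the partner of a testis form, fell by 0.78 ± 0.24 (adjusted p = 0.0287) with overlap. Median scaling left 6 of the 12 genes that fell, and quantile normalization 3.

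Ndufa4, once assigned to complex I and now to complex IV, was the exception among these 12 (-0.16 ± 0.30, adjusted p = 0.712). It was at 5.19 and 4.79 in the microRNA normals, 4.96 and 5.14 in the control normals and 5.46 and 4.51 in the microRNA tumors, and ran from 4.37 over a median of 4.62 to 6.00 in the control tumors. The groups overlapped, and control tumor 3 stood above all other arrays.

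The tissue-restricted isoforms of complex IV moved in different ways. Cox7a1, the form of heart and skeletal muscle (chr7:30970337-30970948), was at 5.68 and 5.24 in the microRNA normals, 5.03 and 5.97 in the control normals and 3.09 and 2.61 in the microRNA tumors, and ran from 1.01 over a median of 2.61 to 3.15 in the control tumors. All tumors were far below all normal arrays, and the gene fell by 2.88 ± 0.39 (adjusted p = 0.000661), or 7.38-fold.

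Cox8b, the form of muscle and brown fat, was at -1.19 and -1.33 in the microRNA normals, -0.27 and 0.11 in the control normals and -3.70 and -3.22 in the microRNA tumors, and ran from -5.22 over a median of -3.93 to -2.34 in the control tumors. The groups did not overlap. Cox8b fell by 3.20 ± 0.53 (adjusted p = 0.00187). It was above background on all 4 normal arrays, both microRNA tumors and 5 of 7 control tumors, so no fold is given. Cox6a2, also of heart and skeletal muscle, fell by 1.48 ± 0.44 (adjusted p = 0.0245) with overlap, and was above background in only 4 of 7 control tumors. Without scaling between arrays Cox7a1 and Cox8b were the 2 members that fell, and Cox7a1, Cox8b and Cox6a2 also fell under median scaling and quantile normalization.

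Cox6b2, a form known from testis, was the 1 member that rose, by 0.52 ± 0.18 (adjusted p = 0.0405). It was at -1.10 and -1.54 in the microRNA normals, -0.62 and -0.89 in the control normals and -0.89 and -0.48 in the microRNA tumors, and ran from -0.76 over a median of -0.32 to 0.07 in the control tumors. The groups overlapped, and the call was lost without either microRNA normal, without either control normal, without microRNA tumor 2 and without control tumor 2, 4, 6 or 7, where 0 members rose in each case. Cox4i2, a form known from lung (-0.16 ± 0.16, adjusted p = 0.45), and Ndufa4l2, a hypoxia-responsive relative of Ndufa4 (adjusted p = 0.996), did not pass.

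**Figure D2:**
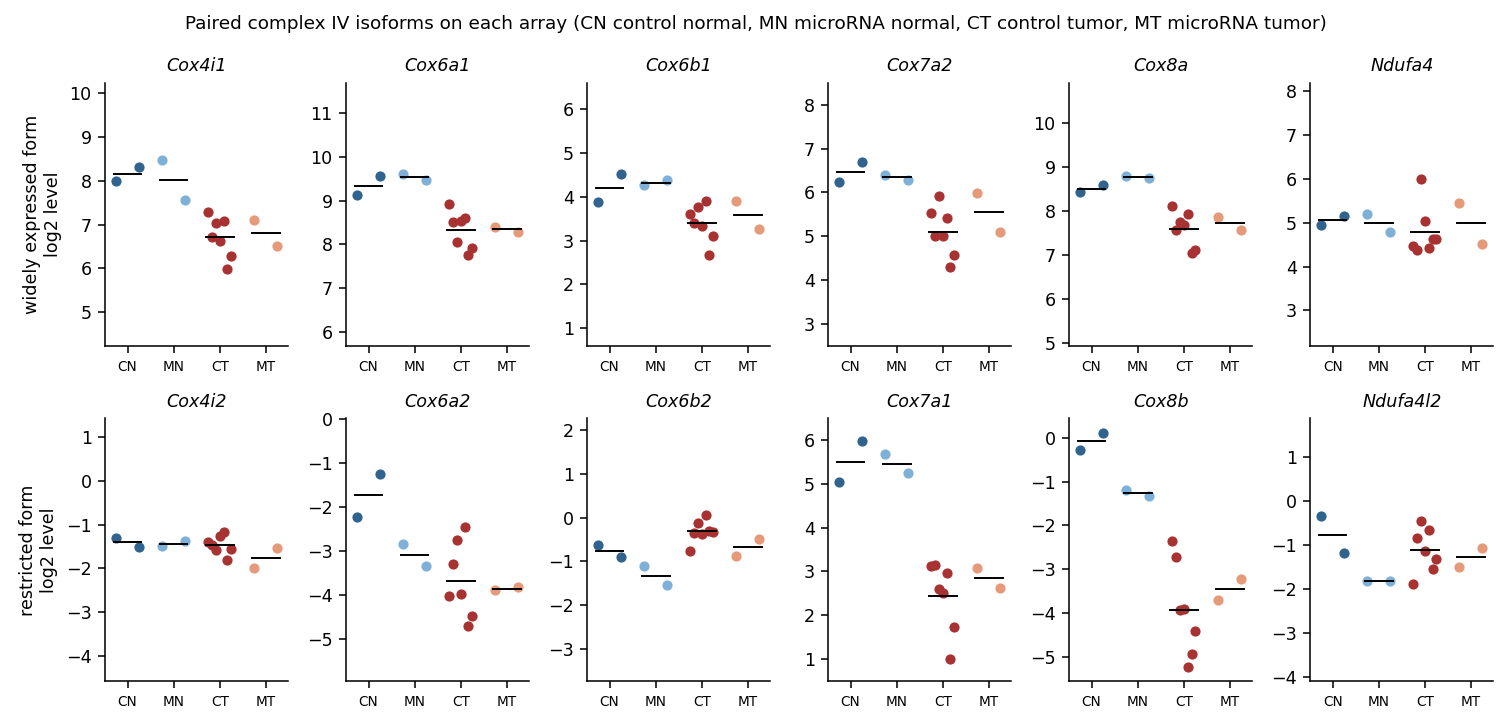
Log2 level of 6 widely expressed complex IV subunits (top) and their restricted counterparts (bottom) on each array, scaled to the 75th percentile of the array; points are arrays (CN control normal, MN microRNA normal, CT control tumor, MT microRNA tumor), horizontal lines group means, and every panel spans the same height. Cox7a1 and Cox8b show the widest separation of normal tissue from tumors, with falls of 2.88 and 3.20 that kept their sign without scaling (-1.89 and -2.21), while Ndufa4, Cox4i2 and Ndufa4l2 overlap throughout.

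Complex V, the ATP synthase, fell in 13 of 15 genes with a median of -0.83. Atp5g3, 1 of the 3 genes for the proton-carrying c ring (chr2:73746519-73746578), was at 7.97 and 7.85 in the microRNA normals, 7.59 and 8.02 in the control normals and 6.97 and 6.69 in the microRNA tumors, and ran from 6.36 over a median of 6.71 to 7.05 in the control tumors. No tumor reached a normal array, and the gene fell by 1.10 ± 0.18 (adjusted p = 0.00193). Atp5g1, which encodes the same mature protein, fell by 0.83 ± 0.21 (adjusted p = 0.0122), and Atp5g2, the third of these genes, did not pass (-0.35 ± 0.18, adjusted p = 0.151). Its probes had the widest spread among the 26 members with several probes, 0.34, and the probes differed in sign for 0 of the 26.

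Atp5o, the stalk subunit that confers oligomycin sensitivity, fell by 1.17 ± 0.23 (adjusted p = 0.00431) and Atp5k, a small membrane subunit, fell by 1.29 ± 0.25 (adjusted p = 0.00362), both without overlap. In the catalytic head, the alpha subunit Atp5a1 fell by 0.82 ± 0.17 (adjusted p = 0.00473) without overlap, and the catalytic beta subunit Atp5b fell by 0.65 ± 0.19 (adjusted p = 0.0245) with overlap. Atp5b did not pass under median scaling (adjusted p = 0.0964) and was at -0.05 after quantile normalization (adjusted p = 0.863), where 4 of the 15 genes fell. Atp5f1, of the peripheral stalk, did not pass (-0.52 ± 0.19, adjusted p = 0.0506).

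Of the 7 genes that are not subunits 0 passed the limma test, with 1 at an unadjusted p under 0.05, and their median was -0.13. The nearest to the threshold was Atp5sl (-0.53 ± 0.22, adjusted p = 0.0779), followed by Ndufaf3 (-0.37 ± 0.22, adjusted p = 0.204) and Atp5s (0.23 ± 0.14, adjusted p = 0.234).

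**Figure D3:**
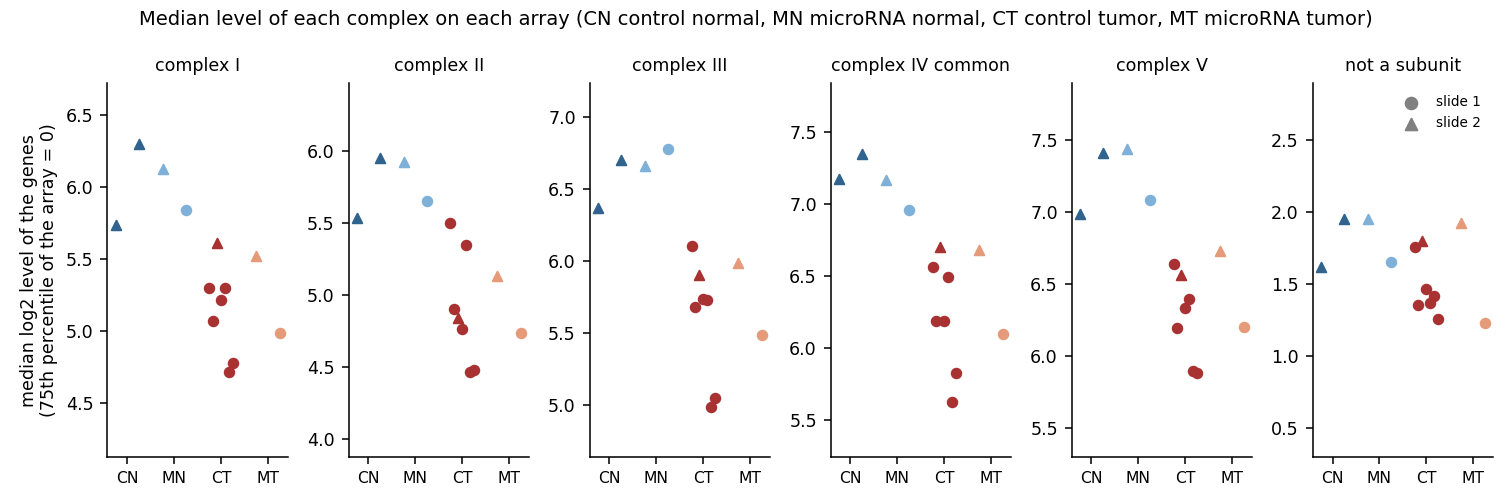
Median log2 level of the genes of each complex on each array, scaled to the 75th percentile of the array; columns are groups (CN control normal, MN microRNA normal, CT control tumor, MT microRNA tumor), circles slide 1 and triangles slide 2, and every panel spans the same height. On this scale all 9 tumors lie below all 4 normal arrays in the panels for complexes I to V. The gap is narrowest in complex II (control tumor 1 at 5.50, control normal 1 at 5.53), and the genes that are not subunits overlap. Under median scaling the member median overlapped: microRNA tumor 1 (9.51) lay above microRNA normal 2 (9.25) and control normal 1 (9.20). Without scaling the tumor differences of complexes I to V turned to medians of 0.02 to 0.18.

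The tumors differed among themselves. The median over the 89 genes was 6.20 and 5.95 in the microRNA normals, 5.79 and 6.33 in the control normals, and 5.65 and 5.01 in the microRNA tumors. In control tumors 1 to 7 it was 5.50, 5.13, 5.70, 5.22, 5.45, 4.72 and 4.86. No tumor reached the lowest normal array on this scale. Under median scaling microRNA tumor 1 (9.51) and control tumor 3 (9.48) lay above control normal 1 (9.20) and microRNA normal 2 (9.25). Control tumor 6 was the lowest tumor for 63 of the 89 genes and control tumor 7 for 12, while control tumor 1 was the highest for 34 and control tumor 3 for 24. Without control tumors 6 and 7, left out after these values were seen, 63 members fell with a median of -0.76.

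Both tumors on slide 2, control tumor 3 and microRNA tumor 1, had higher medians than any tumor on slide 1. With slide as a block 53 members fell, while 19.3% of all genes fell, and the member median was -0.71. Within slide 2 alone (3 normal arrays, 2 tumors) the median was -0.62, and 10 members fell beside 10.3% of all genes. Within slide 1 alone, where microRNA normal 2 is the only normal array, the median was -1.05. Leaving out control normal 2, the normal array with the highest member median, left 33 that fell and a median of -0.76.

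In control mice alone, 43 of the 89 genes fell and 0 rose, with a median of -0.87 (limma, 68 at an unadjusted p under 0.05), while 10.9% of all genes fell and 8.25% rose. The genes that fell were 16 of 36 in complex I, 2 of 4 in complex II, 6 of 9 in complex III, 9 of 12 common and 3 of 6 restricted genes in complex IV, and 7 of 15 in complex V. The smallest p-values belonged to Cox8b (-3.84, adjusted p = 0.00451), Cox7a1 (-3.06, adjusted p = 0.00474), Ndufb10 (-1.61, adjusted p = 0.0055), Atp5g3 (-1.12, adjusted p = 0.0139) and Uqcrh (-1.23, adjusted p = 0.0192). The median turned to 0.19 without scaling, and under median scaling 10 genes fell and 0 rose (7.89% and 8.11% of all genes).

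The count in control mice rested on few arrays. Without control normal 2 it was 0 and without control normal 1 it was 2, and it was 26, 13, 25 and 12 without control tumors 2, 4, 6 and 7. With slide as a block 3 members fell, while 4.88% of all genes fell, and the member median was -0.59. The median was also -0.59 within slide 2 alone, where control tumor 3 is the only control tumor. With file number (a number in the name of each deposited array file, of unstated meaning) as a random block 16 fell (7.34% of all genes). Control tumors 1 and 2 had number 5, control tumor 3 and control normal 2 number 10, and control tumors 4 to 7 number 6. Arrays with the same number had a consensus correlation of 0.35 in the additive model.

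In microRNA mice alone, with 2 arrays a group, 1 of 89 genes passed, Ndufb10 at -1.46 ± 0.35 (adjusted p = 0.0473), while 3.18% of all genes passed in either direction. The call was lost under median scaling (adjusted p = 0.143), and 46 members had an unadjusted p under 0.05. The median was -0.81, with 83 of the 89 differences below 0, and turned to 0.09 without scaling. Cox7a1 (-2.61, adjusted p = 0.0516), Ndufs7 (-1.26, adjusted p = 0.0617) and Ndufv1 (-1.17, adjusted p = 0.0748) came next. Within slides 2 and 1 the median was -0.67 and -1.05. With slide as a block 5 passed, while 3.71% of all genes fell and 2.77% rose. With file number as a random block (each microRNA tumor shares its number with 1 microRNA normal) 17 passed. In that fit 1383 of all 25413 genes fell (5.44%) and 915 rose. In the fit without a block, the member count was 0 without any 1 of the 4 microRNA arrays. It was also 0 without either control normal and without control tumor 2, 4 or 5. It was 2 without control tumor 1 and 3 without control tumor 6.

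The tumor differences of the 2 groups of mice share no array. Across the 89 genes they had the same sign in 86, with a Pearson r of 0.79 and a Spearman rho of 0.65, and r was 0.61 over the 76 common subunits and 0.64 over all 25413 genes. Genes are not independent replicates, so these values are descriptions. No member passed the test of the difference itself (limma, 0 of 89, and 0 at an unadjusted p under 0.05, with 0.279% of all genes passing), and the median difference was 0.07.

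**Figure D4:**
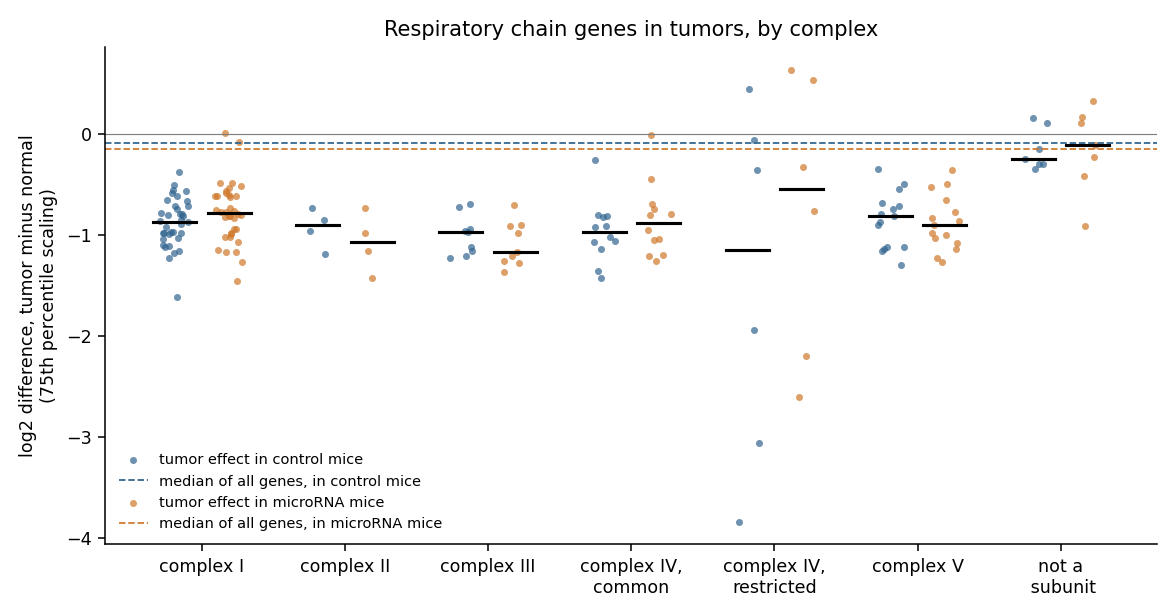
Log2 difference between tumor and normal tissue for each of the 89 genes, by complex, in control mice (blue, 2 normal arrays and 7 tumors) and microRNA mice (orange, 2 and 2), scaled to the 75th percentile; points are genes, black bars medians, and dashed lines the medians of all genes (-0.09 and -0.15). Apart from the restricted complex IV genes, the medians of the complexes lie between -1.17 and -0.78 in both groups of mice; without scaling the medians of the 89 genes turned to 0.19 and 0.09.

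No effect of the injected microRNAs on these genes was detected. In tumors 0 of 89 members passed (limma, microRNA against control mice, with 0.00393% of all genes passing), 0 had an unadjusted p under 0.05, and the median was 0.10, with single genes between -0.37 and 0.46. In normal tissue 0 of 89 passed, while 0.527% of all genes did, 1 had an unadjusted p under 0.05 (Ndufa4l2, -1.06 ± 0.45, adjusted p = 0.845), and the median was 0.03.

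Transcripts from mitochondrial DNA were measured for 12 genes, a list made after the names on the array were known. Of these 10 fell in tumors, with a median of -0.95, while 19.6% of all genes fell. Median scaling left 5 that fell, leaving out control normal 1 left 4, and leaving out any other single array 7 to 10. The median turned to 0.04 without scaling. COX2, a catalytic subunit of complex IV, fell by 0.82 ± 0.16 (adjusted p = 0.00362), COX3, of the same core, fell by 0.97 ± 0.19 (adjusted p = 0.004), and ATP8, a membrane subunit of complex V, fell by 1.25 ± 0.28 (adjusted p = 0.00687). COX1 (-0.23 ± 0.36, adjusted p = 0.65) and ND6 (-1.24 ± 0.59, adjusted p = 0.125) did not pass. In control mice 10 of 12 fell, with a median of -1.22, and in microRNA mice 0 of 12 passed (limma, 2 at an unadjusted p under 0.05), with a median of -0.41. The test of the difference between the 2 groups of mice called 0 of 12, with 1 at an unadjusted p under 0.05 and a median of 0.83. Between microRNA and control normals 0 of 12 passed (limma, 5 at an unadjusted p under 0.05), with a median difference of -0.71. The arrays of these 2 groups overlapped for ND2, ND3, ND4L, COX1, COX2 and COX3.

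Lists of other mitochondrial genes are given beside the 19.6% of all genes that fell and the 11.7% that rose. The citrate cycle fell in 12 of 17 genes (median -0.68), with Dlat of the pyruvate dehydrogenase complex (-0.81, adjusted p = 0.000959) and citrate synthase Cs (-0.92, adjusted p = 0.00187) among the smallest p-values. Mobile carriers and nucleotide exchange fell in 10 of 14 (median -0.57), with Etfb (-1.59) and Etfa (-1.38), which bring electrons from fatty acid oxidation, and the outer membrane channel Vdac3 (-1.26) in front. Assembly factors, 4 of them also counted among the 89, fell in 8 of 30 and rose in 1 (median -0.38), with Ecsit of complex I (-1.08) and Surf1 and Cox11 of complex IV (-1.24 and -0.78) in front. Of 24 genes of mitochondrial protein import 0 passed (limma, median -0.14, 1 at an unadjusted p under 0.05). Without control normal 2, 5 genes of the citrate cycle, 3 of the carriers and 2 of the assembly factors fell. The carriers numbered 3 without microRNA tumor 2, 4 without microRNA normal 1 and 6 without microRNA normal 2 or control tumor 6, and the assembly factors 4 without microRNA tumor 2 or microRNA normal 1.

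Among 20 regulators of respiratory genes 4 fell and 2 rose (median 0.08), against 19.6% and 11.7% of all genes. Leaving out 1 array gave 1 to 5 that fell, the lowest without control normal 2. The nuclear receptors Esrrg and Esrra fell by 2.66 ± 0.58 (adjusted p = 0.00639) and 1.08 ± 0.30 (adjusted p = 0.0178), and the deacetylase Sirt3 by 0.88 ± 0.22 (adjusted p = 0.0118). Myc rose by 1.33 ± 0.25 (adjusted p = 0.00331) and Hif1a by 0.82 ± 0.28 (adjusted p = 0.041). For Hif1a the tumor difference was 0.30 in control mice (limma, adjusted p = 0.448) and 1.62 in microRNA mice (adjusted p = 0.0311). The test of the difference between these 2 values did not pass (limma, adjusted p = 0.638). Nrf1 (0.08), Gabpa (0.25) and Tfam (-0.20), factors known to drive these genes and the mitochondrial genome, did not pass, nor did the coactivator Ppargc1a (-0.87 ± 0.32, adjusted p = 0.0557). Without scaling the medians of the citrate cycle, the carriers and the assembly factors turned to 0.31, 0.42 and 0.61.

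**Figure D5:**
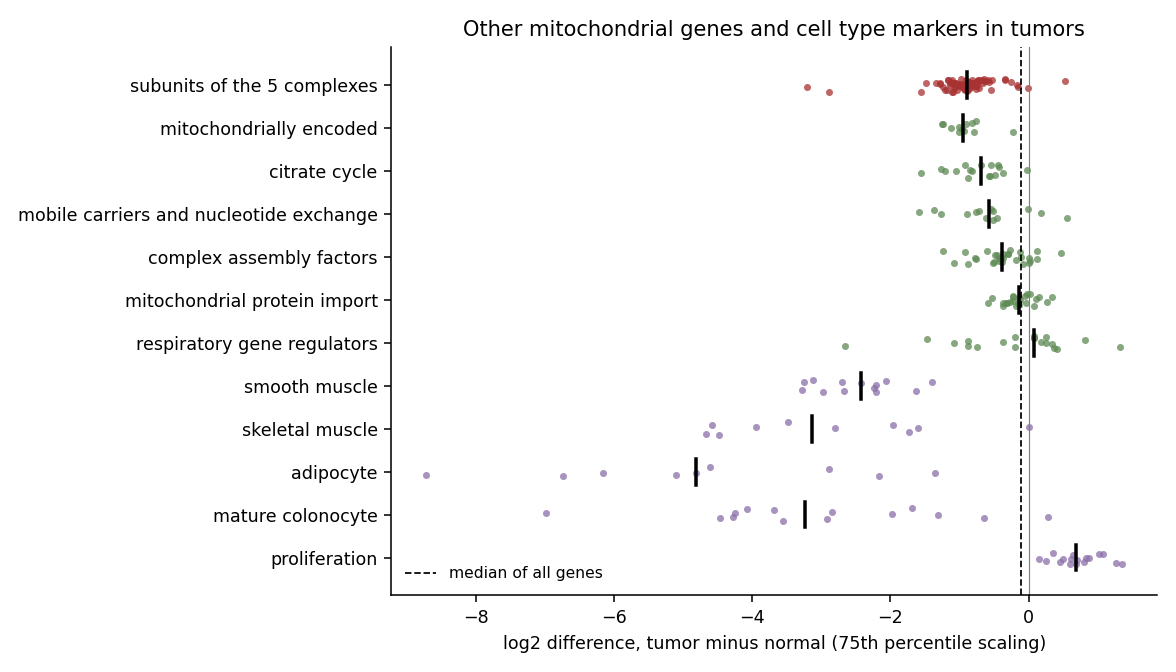
Log2 difference between tumor and normal tissue over both groups of mice (75th percentile scaling) for the 82 subunit genes (red), other mitochondrial gene lists (green) and markers of cell types and of proliferation (purple); points are genes, black bars list medians, and the dashed line is the median of all genes (-0.11). Subunits and mitochondrially encoded transcripts have medians of -0.89 and -0.95, and muscle, fat and colonocyte markers lie farther below 0; without scaling the median of the 89 members turned to 0.13 and that of the mitochondrially encoded transcripts to 0.04.

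Markers of several cell types and of proliferation also differed between tumors and normal tissue, some falling and some rising. Smooth muscle markers fell in 13 of 13 (median -2.42), and their log2 summed level was 9.20 to 9.35 in the microRNA normals, 10.01 to 10.46 in the control normals, 8.23 to 8.27 in the microRNA tumors and 5.95 to 8.47 in the control tumors. Skeletal muscle markers fell in 9 of 10 measured of 13 (median -3.14), with summed levels of 1.89 to 1.97, 3.65 to 4.50, 1.46 to 1.99 and 0.96 to 2.38 in the same order. Myh1 and Mb were above background in both control normals and on no other array, and Myh4, Mylpf and Actn3 on none.

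Adipocyte markers fell in 8 of 9 measured of 11 (median -4.82), with summed levels of 5.67 to 6.20, 5.46 to 5.98, 2.74 to 3.39 and 0.82 to 3.51 in that order. Plin1 was above background on all 4 normal arrays and in no tumor, and Lep and Ucp1 on no array. Mature colonocyte markers fell in 12 of 14 (median -3.24), with 10.97 to 11.00, 9.98 to 11.01, 7.75 to 7.92 and 6.68 to 9.98. Proliferation genes rose in 12 of 17 measured (median 0.68), with 7.00 to 7.08, 6.84 to 7.05, 7.30 to 7.93 and 7.14 to 7.97, neutrophil genes in 9 of 10 (median 2.38) and fibroblast genes in 5 of 11 (median 0.78). Leaving out 1 array moved the smooth muscle count to 8 (without control normal 1) and the colonocyte count to 6 (without control normal 2). The part of these cell types in the fall of the respiratory chain genes was not tested.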

How the data were processed

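Total RNA (35 ng, TRIzol) from the 13 samples was labelled with Cy3 by oligo-dT priming and hybridised to 1-colour Agilent arrays, per the labels' protocols. The deposited spot intensity values are linear and were background-subtracted and detrended within each array by Feature Extraction 10.7.3.1, per the file headers, with no scaling between arrays; probe positions are on mm9. The deposited series table holds the same values. For this work control spots were left out (3671 of them, leaving 59305 spots of 55681 probes), log2 intensity was centred on the 75th percentile of each array, probes well above background on at least 2 arrays were kept (35214), and the brightest probe by mean level stood for a gene. No spot of a member was saturated. The number of arrays limits the precision (residual df 9).

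Differences were tested with limma 3.58.1 (R 4.3.3), as an additive model of tissue and treatment for both groups of mice together and a model of 4 group means otherwise, with Benjamini-Hochberg adjustment over 25413 genes. On simulated data (25377 genes) 200 genes were changed, 100 by each size, with noise independent between genes. The additive model recovered 33% of those changed by 1 and 78% of those changed by 2 on the log2 scale. In the data 19.6% of all genes fell and 11.7% rose, so these recovery rates do not describe the test there. The members and lists were chosen with earlier results of these data known. Values are given for the core catalytic subunits, for the restricted isoforms with their partners, and for the smallest p-values per complex, comparison and list. Some genes that this choice covers are not reported here. Alternatives were median, quantile and no scaling, normexp, no filter on dim probes, other fits, slide, replicate number or file number as a block, and each array left out. Replicate numbers were not used as pairs, since no label ties a number to an animal: deviations of same-numbered arrays correlated at 0.42 in microRNA mice, where they also share a slide and a file number, and at -0.14 and -0.09 in control mice.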

Additional observations from a re-analysis of the deposited data

Results flagged for a closer look

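Of 46 values tested for a single array far from the rest among the 7 control tumors, 1 stood out. Ndufa4 was at 6.00 in control tumor 3, with the nearest control tumor at 5.04 and the lowest at 4.37, so that the gap took up 0.586 of the whole range. Chance marks about 1 in 20 such groups. Control tumor 3 was the only control tumor on slide 2, and whether slide had a part in this value was not tested.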

How the results depend on the processing

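Without scaling between arrays, 2 members fell and 10 rose over both groups of mice, and the member median turned to 0.13 (control mice 2 fell, 6 rose, 0.19; microRNA mice 0.093). The medians of complexes I, II, III, IV common, IV restricted and V turned to 0.18, 0.076, 0.0205, 0.032, 0.17 and 0.16, and those of the mitochondrially encoded, assembly factor, carrier and citrate cycle lists to 0.041, 0.61, 0.42 and 0.31. Single genes turned as well: Ndufs1 0.41, Ndufv1 0.13, Sdha 0.16, Sdhc 0.023, Sdhd 0.13, Uqcrc1 0.0205, Cyc1 0.12, Cox5a 0.089, Atp5a1 0.18, Atp5b 0.34, Cox4i2 0.83, Ndufa4l2 0.99, Cox6b1 0.22, Cox8a 0.025 and Ndufa4 0.84. Quantile normalization gave 30 members that fell over both groups (median -0.45) and 0 called in microRNA mice (-0.41). In control mice it gave 5 that fell (-0.47), while 9.28% of all genes fell. Median scaling gave 41 over both groups, 10 in control mice and 0 in microRNA mice. The replicate block left 23 that fell and 0 that rose over both groups (6.75% and 4.35% of all genes). In control mice it left 1 that fell (0.80% of all genes). In microRNA mice it called 2, while 2.60% of all genes fell and 2.20% rose. File number as a random block gave 16 in control mice and 17 in microRNA mice, and slide as a block 3 and 5. In microRNA mice 1383 of all 25413 genes fell (5.44%) and 915 rose with file number as a random block. With slide as a block 3.71% of all genes fell there and 2.77% rose. Fits on the groups compared alone gave 26 and 2. In those fits 8.76% of all genes fell in control mice, and 2.34% fell and 1.34% rose in microRNA mice. Within slide 2, 10 fell and 0 rose over both groups (10.3% and 9.02% of all genes). The medians within slide 2 were -0.59 in control mice and -0.67 in microRNA mice, each with 1 tumor array. Within slide 1, with microRNA normal 2 as the only normal array, the median was -1.05. Normexp, no filter, and trended robust estimation called 8, 2 and 3 in microRNA mice. In the same order, 8.06%, 3.12% and 1.99% of all genes fell there, and 1.82%, 1.17% and 1.63% rose. Without control tumors 6 and 7, chosen after seeing the data, 0 rose over both groups, 10 fell in control mice and 3 were called in microRNA mice. Leaving out 1 array gave 33 to 74 that fell and 0 to 1 that rose over both groups, 0 to 55 that fell in control mice, and 0 to 3 called in microRNA mice. The cause of these changes was not tested. Comparisons of microRNA with control mice, and of the 2 tumor differences, called 0 members in every setting run.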
